A study of Danio rerio with 4 samples.

Results

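The immediate early and Myc genes of the zebrafish liver were described from the table of values for UHRF1-high larvae. The set was given by symbol as jun, junba, junbb, fos, fosl2, egr1, atf3, ier2, myca and mycb, 10 genes in all. Of these, 9 had a row under that symbol among the 11021 genes of the table, and ier2 had none and was not analysed here. The symbol fos is an older name for the gene that RefSeq now lists as fosab, and the other 8 symbols are current. RefSeq likewise lists ier2 as a synonym of ier2a, but the set was matched by the symbol ier2 only. The study measured polyadenylated RNA from livers of larvae at 5 days post fertilisation (dpf). The labels name 4 libraries in 2 groups. The UHRF1-high group, libraries A and B, has the genotype Tg(fabp10:has.UHRF1-GFP), a transgene for human UHRF1 fused to GFP that is driven by the hepatocyte promoter of fabp10. The control group has the genotype Tg(fabp10:nls-mCherry), a nuclear red fluorescent protein under the same promoter, and its 2 libraries were not analysed here.

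The comparison open to these values is therefore between the 2 UHRF1-high libraries, which shows how far each gene varied within that group. The levels say nothing of a change from the control livers, and with 1 library on each side no test was made. The promoter is active in hepatocytes, so the other cells of the liver do not carry the transgene product by design. The labels do not say how many livers made up a library, nor that A and B came from separate clutches. In whole livers, fewer cells of a type and less RNA per cell cannot be told apart. Hepatocyte markers were read beside the labelled tissue: all 20 marker genes had a mean signal of 1 or more, and fabp10a, apoa1b and apoa2 held the same 3 top values in both libraries. This does not identify the tissue, since all 20 skeletal muscle markers with a row also had such a mean. Quantile normalisation gives both libraries the same top values, so only which genes hold them was observed. Other hepatocyte markers differed between the libraries, as counted below. Values are quantile-normalised signal, so a value stands for the rank of a gene in its library, and the sequencing depth is unknown.

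Immediate early genes are transcribed within minutes of a growth factor, cytokine or stress signal, by transcription factors already present in the cell, and their RNAs are short-lived. Fos proteins pair with Jun proteins to form AP-1, which binds DNA as a dimer through basic leucine zippers, while Egr1 is a zinc finger factor induced by the same kinase cascades. Myc proteins pair with Max and activate genes of ribosome production, nucleotide synthesis and growth. In the mammalian liver, fos, jun, egr1 and myc are among the genes induced soonest after partial hepatectomy, and in liver tumours Myc and Jun are known to drive growth.

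The 9 genes did not all differ in one direction between the libraries. The genes fos and egr1 were nearly 3-fold higher in A, junbb and myca were higher in B by less than 2-fold, and jun, junba, atf3, fosl2 and mycb differed by less than 1.5-fold. All 9 had a mean signal of 1 or more and entered the comparison, which was made on log2(signal + 1). Every fold between libraries given below is a fold of signal + 1, slightly smaller than the ratio of the signals themselves and clearly so for low genes, and ratios between genes are of the signals. On that scale 2 of 9 were at least 2-fold higher in A, where 7.07% of the 8386 genes that passed this filter were as far apart in that direction. None of the 9 was at least 2-fold higher in B, against 6.83% of all genes. The median difference of the 9 genes was -0.17 on the log2 scale (A minus B), beside -0.02 for all genes.

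**Figure D1:**
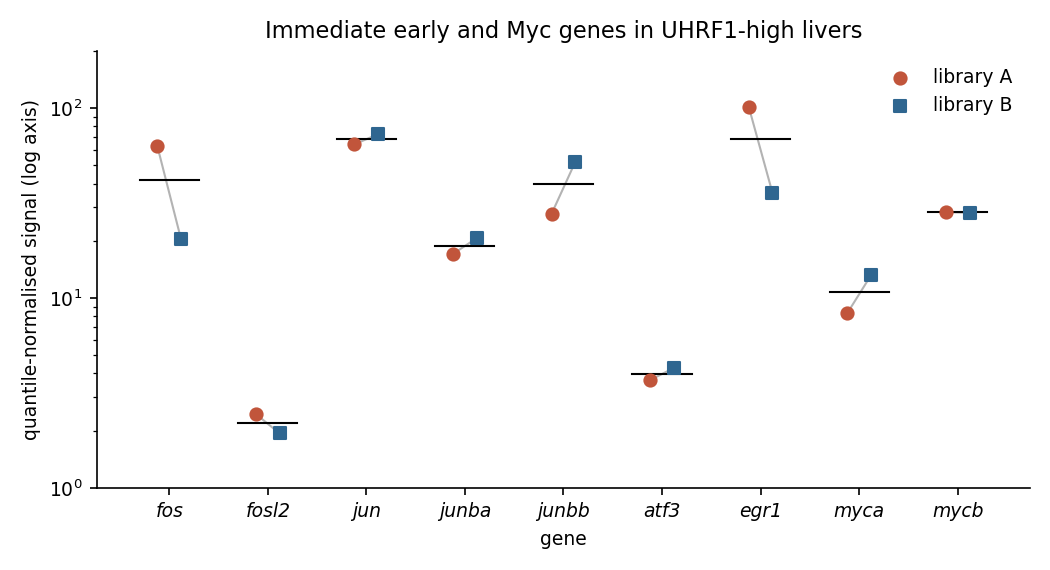
Quantile-normalised signal (log axis) of the 9 genes in UHRF1-high library A (circles) and library B (squares), with the mean of the 2 libraries as a black bar. The values of fos and egr1 are higher in A, junbb and myca are higher in B, and the points of mycb lie side by side.

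Markers of cells other than hepatocytes moved between the same libraries. Exocrine pancreas markers were at least 2-fold higher in A in 11 of 12 genes, with a summed signal of 10122 in A and 1122 in B, in the same direction as fos and egr1, beside 7.07% of all genes. The remaining one, the elastase gene ela2l, was past 2-fold the other way, at 4.02 and 36.4. Skeletal muscle markers were at least 2-fold higher in B in 20 of 20 genes, beside 6.83% of all genes, with sums of 538 and 4653, in the direction of junbb and myca. So were 7 of 10 skin markers (198 and 567) and 6 of 10 markers of macrophages and neutrophils (50.1 and 136). Counts are of genes past the filter, while sums take in every listed gene with a row. Those were 14 for skin, 14 for macrophages and neutrophils and 10 for erythrocytes. Endothelial and stellate markers were at least 2-fold higher in B in 5 of 16 genes (76.3 and 142), namely col1a1a, col1a2, desma, acta2 and pdgfrb. The other 11, among them the endothelial genes kdrl, cdh5, flt1, tek and fli1a, differed by less than 2-fold. None of these markers was listed at 0, but A lists no gene at 0. Its lowest value is 0.0203, shared by 694 genes. The muscle marker tnnt3a and the skin markers anxa1c and evpla were at or below that value in at least 1 library. Erythrocyte markers had 1 of 9 genes past 2-fold, higher in A, but a larger summed signal in B (1466 and 2347). To any extent, 4 of these 9 were higher in A and 5 in B. The globin genes hbae3, hbbe1.1, hbbe2 and hbae1 were each higher in B by less than 2-fold. Hepatocyte markers had 7 of 20 genes (35%) past 2-fold in A, the direction of fos and egr1, beside 7.07% of all genes. In B 1 of 20 (5%) was past it, beside 6.83%. To any extent, 12 were higher in A and 5 in B. Their sums (259206 and 244952) consist mostly of apoa1b (130650), apoa2 (73737.3) and fabp10a (29654.5), whose values are the same in both libraries. The closeness of these sums therefore does not show that the other hepatocyte markers were balanced. The part of all these markers in the differences of the immediate early and Myc genes was not tested.

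Of the Fos genes, fos itself encodes the founding Fos subunit, which binds DNA as a dimer with a Jun partner. It lies on chromosome 20 from 46803285 to 46805433 (Zv9). Its signal was 62.9 in A against 20.4 in B (mean 41.7 ± 30.1 SD, n = 2). Library A was the higher one by 2.99-fold (signal + 1), a log2 difference of 1.58. Of the 8386 genes, 383 or 4.57% differed at least that much in either direction. In A the gene ranked 1047th in the table and in B 2358th.

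The gene fosl2 (chromosome 17, 41427852 to 41443722), which encodes the Fos-related subunit Fra-2, was the lowest of the set. Its signal was 2.45 in A against 1.93 in B (mean 2.19 ± 0.361 SD, n = 2). The difference was 0.23 on the log2 scale, and 67.7% of all genes differed at least as much. Values this low are coarse: 64 genes of the table shared the value of fosl2 in A and 83 shared it in B.

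Of the Jun genes, jun (chromosome 20, 15558577 to 15560475) encodes the AP-1 subunit that can pair with itself as well as with Fos. Its signal was 64.4 in A against 72.7 in B (mean 68.6 ± 5.90 SD, n = 2). The libraries were close, at a log2 difference of -0.17 that 75.2% of all genes reached or passed. It ranked 1030th in A and 950th in B.

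The fish has a pair of genes for JunB, in mammals a weaker activator than Jun, and the libraries lay farther apart for one of them. The gene junba (chromosome 1, 52226931 to 52228477) had a signal of 17.1 in A against 20.6 in B (mean 18.8 ± 2.53 SD, n = 2). Its paralog junbb (chromosome 3, 8434961 to 8436631) had 27.8 in A against 52.0 in B (mean 39.9 ± 17.1 SD, n = 2). On the scale of signal + 1, junbb was 1.84-fold higher in B, a log2 difference of -0.88, against 1.20-fold and -0.26 for junba. A difference as large as that of junbb was found in 18.1% of all genes. In both libraries the signal of junbb was above that of junba.

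The gene atf3 (chromosome 20, 37819312 to 37825328) encodes a stress-induced factor of the same zipper class that pairs with Jun proteins and often represses transcription. Its signal was 3.69 in A against 4.28 in B (mean 3.99 ± 0.419 SD, n = 2), so that it lay close to the middle of all genes, at percentile 46.5 in A and 49.4 in B. The difference of -0.17 (log2) was matched or passed by 75.4% of all genes. In A 62 genes shared its value.

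The zinc finger factor gene egr1 (chromosome 14, 22334957 to 22337258) had the highest single value of the set. Its signal was 101 in A against 35.7 in B (mean 68.4 ± 46.3 SD, n = 2). It was 2.78-fold (signal + 1) higher in A, a log2 difference of 1.48, and 453 genes or 5.40% differed at least as much in either direction. Its rank was 746th in A and 1584th in B. The level of egr1 relative to fos was nearly the same in both libraries, with a fos-to-egr1 signal ratio of 0.622 in A and 0.571 in B.

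Of the genes for Myc, mycb (chromosome 2, 31734141 to 31736245) had almost the same signal in both libraries, 28.3 in A against 28.0 in B (mean 28.2 ± 0.188 SD, n = 2). Of all genes, 97.7% differed at least as much. Its paralog myca (chromosome 24, 10214209 to 10216791) had 8.32 in A against 13.2 in B (mean 10.7 ± 3.42 SD, n = 2). This gene was 1.52-fold (signal + 1) higher in B, a log2 difference of -0.60 that 32.2% of all genes reached or passed. The signal of myca was below that of mycb in both libraries, at a ratio of 0.294 in A and 0.469 in B.

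**Figure D2:**
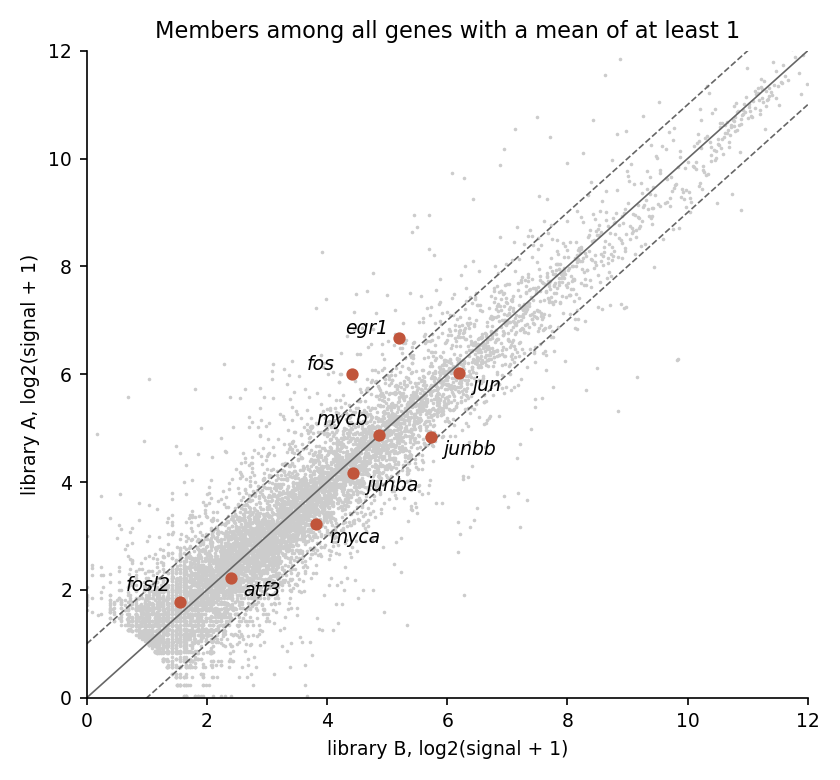
Each point is a gene that passed the filter, placed by log2(signal + 1) in library B (x axis) and library A (y axis), with the 9 genes in red, the line of equal values (solid) and the lines of a 2-fold difference (dashed). The highest genes of the liver lie outside the axes. The points of fos and egr1 lie above the upper dashed line and the other 7 lie between the lines.

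The order of the genes by level was partly set by which library was read. In A the order began with egr1, jun and fos, and in B with jun, junbb and egr1. By the mean of the libraries it ran from jun and egr1 through fos, junbb, mycb, junba and myca to atf3 and fosl2. The ranges of the libraries overlapped for the neighbours jun and egr1, egr1 and fos, fos and junbb, and junbb and mycb. They did not overlap for mycb and junba, junba and myca, myca and atf3, or atf3 and fosl2. These signals are not stated to be divided by transcript length. The 62 genes that shared the value of atf3 in A had genomic spans from 4678 bases at the 10th percentile to 90829 at the 90th. Divided by the kilobases of genomic span, the means were 36.1 for jun, 29.7 for egr1, 23.9 for junbb, 19.4 for fos, 13.4 for mycb, 12.2 for junba and 4.16 for myca. In this order of means only junbb and fos changed places. Neither library alone showed that change: per kilobase, fos was above junbb in A (29.3 and 16.6) and below it in B (9.50 and 31.1), as by signal. Within a library, junbb passed mycb in A (16.6 and 13.4) and junba passed mycb in B (13.34 and 13.32). The genes atf3 and fosl2, at 0.663 and 0.138 per kilobase, have longer spans, of 6017 and 15871 bases. A genomic span takes in any introns, so every one of these values is a lower bound of a value per transcript length. Whether any of these genes would change places per transcript length was not tested.

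Ratios of RNA signal between AP-1 genes followed from these values, while the balance of AP-1 proteins was not measured. The fos-to-jun ratio of the signal was 0.977 in A and 0.281 in B, a 3.48-fold difference that does not depend on the lengths of the genes. The junbb-to-jun ratio went the other way, at 0.431 in A and 0.715 in B, while the junba-to-jun ratio was 0.265 and 0.284. Library A therefore held more fos RNA signal for each unit of jun RNA signal, and library B more junbb RNA signal.

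Paralogs outside the set were read beside it, a choice made after their values had been seen. In the Fos family, fosl1a, which encodes the Fra-1 subunit, had a signal of 11.5 in A and 2.84 in B, a 3.25-fold difference of signal + 1. The gene fosb was near the lowest values in both, at 0.304 and 0.203. Summed over these 4 Fos genes, the signal was 77.2 in A and 25.4 in B.

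In the Egr family, egr2a, a zinc finger factor gene related to egr1, had 37.1 in A and 13.9 in B, a 2.56-fold difference of signal + 1. Its ratio to egr1 was 0.367 in A and 0.390 in B. The gene egr3 had 0.609 and 0.183. For egr2b both values were the lowest of the library: 0.0203 in A, shared by 694 genes, and 0 in B, where 449 genes are listed at 0. Fos and Egr genes past the filter were each higher in A, by a fold of signal + 1 of 1.17 for fosl2 and of 2.56 to 3.25 for the other 4.

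In the Jun family, jund was the one gene higher in A, at 1.79 and 0.772, and the summed signal of the 4 Jun genes was 111.0 in A and 146 in B. In the Myc family, mych, a fish paralog of Myc, had 18.0 in A and 30.3 in B, so that it stood below mycb in A and above it in B. The gene mycn was low, at 0.976 and 2.30, as was mycl1b at 2.16 and 1.79. The 6 Myc genes summed to 58.0 in A and 77.3 in B.

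**Figure D3:**
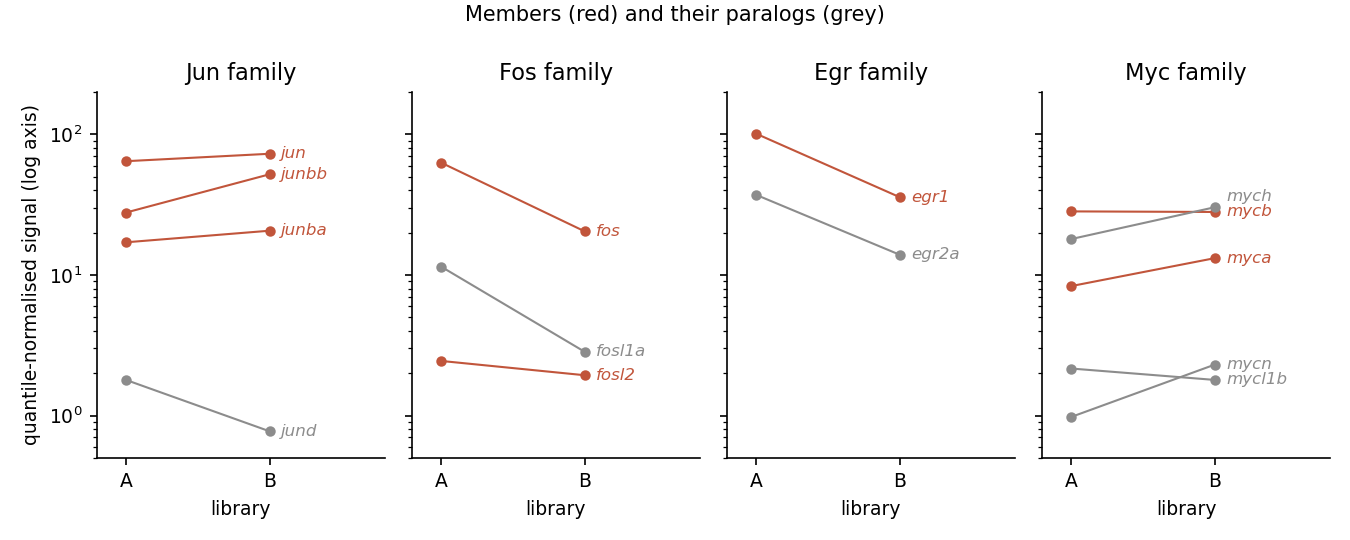
Quantile-normalised signal (log axis) in libraries A and B of the genes of 4 families that passed the filter, the set in red and paralogs outside it in grey, with a line joining the values of each gene. The lines of the Fos and Egr genes fall from A to B, as does that of jund, while those of jun, junba, junbb, myca, mych and mycn climb.

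Other immediate and delayed early genes had 45 of 64 list members in the table, and 40 past the filter. Of these 40, 10 or 25% were at least 2-fold higher in A, beside 7.07% of all genes, and 2 or 5% at least 2-fold higher in B, beside 6.83%. The remaining 28 differed by less than 2-fold, and the median difference was 0.15 beside -0.02 for all genes. With a pseudocount of 10, 1 of the 40 was past 2-fold in A and 0 in B, beside 2.24% and 1.60% of all genes. The largest differences towards A were those of the antiproliferative gene btg2 (21.9 and 7.10), egr2a and the zinc finger repressor gene klf11a (15.2 and 5.57). The kinase gene sgk1, which had the highest mean of the list, had 262 in A and 125 in B. The liver factor genes cebpb and cebpd came next, at 1.43-fold and 2.04-fold higher in A. Towards B stood nfkbiaa, which encodes an inhibitor of NF-kappaB (5.61 and 15.8), and the anti-apoptotic gene mcl1b (27.4 and 59.5). Several classical immediate early genes differed by less than 1.5-fold. The values of the nuclear receptor gene nr4a1 (2.26 and 2.30), the phosphatase gene dusp1 (27.0 and 20.1) and ier5 (17.8 and 21.9) were picked out after they had been seen. Of these, dusp1 was 1.33-fold apart (signal + 1), close to the median of 1.31-fold over all genes.

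The possible partners of Fos and Jun had 12 of 20 list members in the table, and 9 past the filter. Of the 9, 1 was at least 2-fold higher in A, fosl1a, and 1 in B, the repressor gene jdp2 (2.75 and 7.20), counts near the 7.07% and 6.83% of all genes. The highest means were those of maff (22.5 and 16.0), a small Maf gene, nfe2l2a (16.8 and 10.3), the gene for the oxidative stress factor Nrf2, and batf3 (8.88 and 14.8). Of the factors in the ATF and CREB list, 14 of 23 were in the table and 12 passed the filter. Of the 12, 1 was past 2-fold, also near the share of all genes: creb3l3, at 5.06 in A and 1.14 in B, which encodes a membrane-bound factor of the endoplasmic reticulum in liver. The highest of the listed genes were close in both libraries, namely crebl2 (48.2 and 56.1), creb3l3l (20.2 and 20.2) and atf1 (17.7 and 16.5). The list did not hold atf4b1 and atf4b2, added here after their values were seen, which had higher signals of 112 and 191 and of 58.7 and 95.0 and were higher in B by log2 differences of -0.77 and -0.68. The median difference was 0.47 for the AP-1 partners, with 6 genes higher in A to any extent and 3 in B. For the ATF and CREB factors it was 0.30, with 9 higher in A and 3 in B, beside -0.02 for all genes. With a pseudocount of 10, 0 genes of either list, AP-1 partners or ATF and CREB factors, were past 2-fold. The medians were then 0.13 and 0.097, beside -0.01 for all genes.

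The kinases and promoter factors that act upstream of immediate early genes had 33 of 48 list members in the table, and 21 past the filter. None of the 21 differed by 2-fold in either direction, beside shares over all genes of 7.07% (A) and 6.83% (B), which leave few such genes in a list of this size. The median difference was 0.25, with a reversal to -0.13 when the filter was set at a mean of 10. The highest were map2k4b, a kinase gene of the stress cascade that activates Jun kinases (68.9 and 69.9), mapk3, the gene for Erk1 (28.1 and 26.6), and map2k1, the gene for Mek1 (9.84 and 15.7). The gene srfb, for serum response factor, which binds the promoters of fos and egr1 in mammals, was picked for that role outside the rule for named genes and had 1.67 in A and 1.93 in B.

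The Myc and Max network had 14 of 22 list members in the table and 13 past the filter, and none of these 13 differed by 2-fold, beside shares over all genes of 7.07% (A) and 6.83% (B), so that a count of 0 is near the background. The common partner gene max had 16.5 in A and 28.1 in B, a difference of -0.73 (log2) close to that of mych, at -0.72, and that of myca, at -0.60. Of the other Myc genes past the filter, mycn was at -0.74, mycb at 0.013 and mycl1b at 0.18. To any extent, 7 of the 13 network genes were higher in A and 6 in B. The gene usf1l, for an upstream stimulatory factor, had 17.8 and 17.7. The median of the network was 0.01, with a reversal to -0.43 when the filter was set at a mean of 10 and to -0.054 with no filter.

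Genes that Myc activates in mammals had 48 of 58 list members in the table, and 46 past the filter. Of the 46, 3 or 6.52% were at least 2-fold higher in A and 4 or 8.70% at least 2-fold higher in B, both near the shares of all genes, and 0 were past 2-fold in either direction with a pseudocount of 10. The median difference was -0.38, beside -0.02 for all genes. With a pseudocount of 10 it was -0.14, beside -0.01. The 3 towards A were odc1 and srm, which encode enzymes of polyamine synthesis (27.7 and 12.2, and 11.7 and 4.94), and the folate enzyme gene shmt2 (33.5 and 14.8). The gene odc1 is also in the list of other early genes and was counted in both. Towards B the largest differences were those of the glycolytic genes pkmb (0.183 and 5.83) and hk2 (0.997 and 5.28) and of nop58, a nucleolar gene of ribosome production (14.2 and 33.1). Both pkmb and hk2 had low means, of 3.01 and 3.14, and a signal below 1 in A. The highest members varied little, with the mitochondrial chaperone genes hspe1 at 489 and 482 and hspd1 at 226 and 185, and the prohibitin gene phb at 234 and 201.

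**Figure D4:**
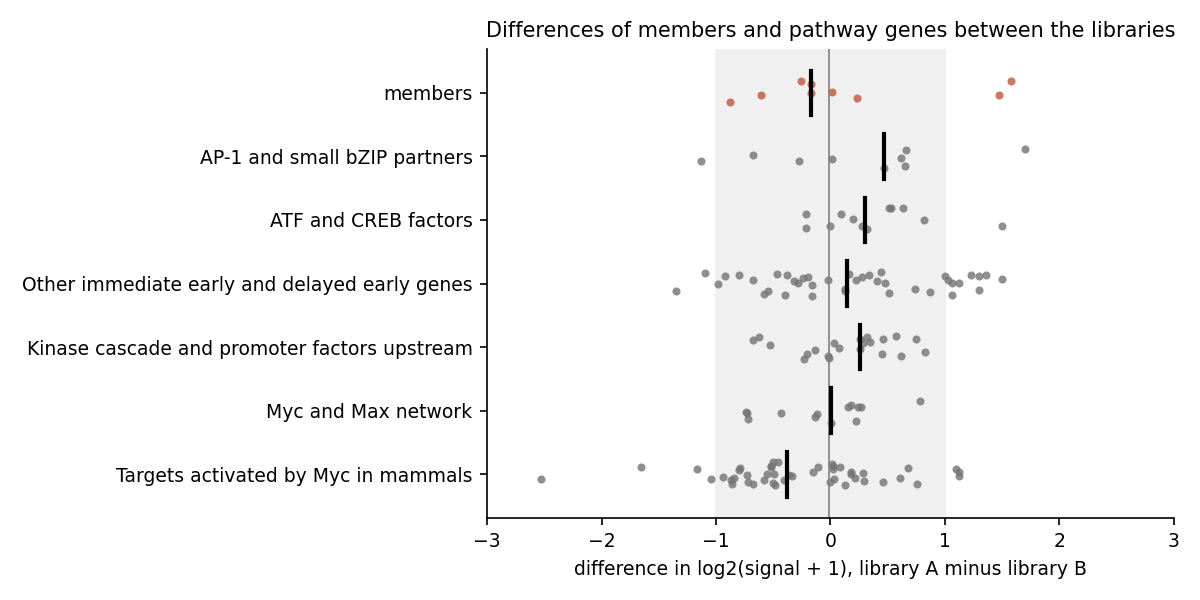
Difference in log2(signal + 1), library A minus library B, for each gene past the filter in the set (red) and in 6 pathway lists (grey); black bars mark medians, the grey band a difference under 2-fold, and the thin line the median of all genes. The 2 red points to the right of the band are fos and egr1, and the early gene list has 10 points to its right and 2 to its left.

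For the 4 genes with the highest means, the genes nearest in both libraries were found by the distance on log2(signal + 1) over A and B, which over 2 libraries says only that level and difference were alike. Nearest to fos were the peroxisomal enzyme gene phyh (62.8 and 20.6, at a distance of 0.01), errfi1, which encodes a feedback inhibitor of the EGF receptor (57.3 and 21.1, 0.14), and cyb5r2 (63.0 and 17.8, 0.19). Nearest to egr1 were etnppl (106 and 34.2), the tyrosine breakdown enzyme gene gstz1 (94.8 and 37.5) and msrb2 (98.5 and 38.8), at distances of 0.09 to 0.12. Nearest to jun were zgc:158363 (64.4 and 73.6), the calmodulin gene calm2a (64.0 and 70.4) and emc2 (64.7 and 75.2), and nearest to junbb were pter (26.9 and 53.0), slc35f6 (28.3 and 53.8) and the centromeric histone gene cenpa (26.5 and 51.4).

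The genomic spans of the 9 genes overlapped no other gene of the table, and 3 of the 9, fos, jun and atf3, lie on chromosome 20. Of these, fos was higher in A, while jun and atf3 differed by less than 1.5-fold.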

How the data were processed

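Livers of larvae at 5 dpf were profiled by sequencing of polyadenylated RNA. Total RNA was isolated with Trizol, selected on poly-A beads and fragmented before barcoded adapters were joined, per the labels' protocols, though small RNA is named in the design text. The authors quantile-normalised the deposited signal values, going by the title of the table. Per the submitters' processing notes, CASAVA 1.7 and the genome build Zv9 (danRer7) were used. The aligner, the counting method, the annotation and the handling of strand and of paralogs were not stated in these sources. Depth is unknown, so no counting intervals are given.

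Columns were matched to A and B by name, and 0 other per-sample columns were left unused. Since the table analysed has no column for the control libraries, the limma fit planned for that case was not made. Differences are on log2(signal + 1), which makes those of weakly expressed genes smaller, and cover the 8386 genes whose mean signal was 1 or more; a gene counts as past the fold at 2-fold or more. Starts were shifted to count from 1. Gene lists, 6 for pathways and 7 for cell types, were matched by symbol or an older symbol. The members and lists were chosen with earlier results of these data known. Named from each pathway list were the 3 highest means and up to 3 genes past 2-fold in each direction, and, for the 4 highest members, the 3 nearest genes. Genes named outside this rule are said to be so where they appear. Alternatives were pseudocounts of 0.1 and 10, no filter, a filter at a mean of 10, median scaling, each library alone, and, added after the values were seen, division by genomic span and leaving out marker genes. The counting of genes past 2-fold was checked on simulated data with far less spread between libraries than these. That checks the code and not how reliable the counts are here. Python 3.11.15, numpy 2.4.6 and pandas 2.3.3 were used.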

Additional observations from a re-analysis of the deposited data

How the results depend on the processing

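Under pseudocounts of 0.1 and 10 and median scaling, fos and egr1 were the 2 members at least 2-fold higher in A. None was at least 2-fold higher in B. The same held with no filter, with a filter at a mean of 10 and without the marker genes. Those settings change only which genes are counted and not the values of fos and egr1, so they could not have changed this result. Leaving out the marker genes therefore does not test the part of other cells in these differences. Over the pseudocounts and median scaling the log2 difference of fos was between 1.26 and 1.62 and that of egr1 between 1.28 and 1.50. None of the 27 alternative differences of the 9 members reversed, but a pseudocount cannot change the sign of a difference. Median scaling, with medians of 4.36 in A and 4.41 in B, moved every difference only slightly towards A. The smallest negative difference, that of atf3, went from -0.17 to -0.16. No setting could therefore have reversed a member, and the lack of reversals says nothing of how stable the signs are. With a pseudocount of 10 the difference of fosl2 fell to 0.060, from 0.23. Under median scaling that of mycb was 0.026, from 0.013. A level from 1 library is that library's value: without A the level of fos is 20.4 and that of egr1 35.7, and without B 62.9 and 101. No paired analysis was made, since the labels pair no libraries across the groups and the table has no column for the control libraries.

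With a pseudocount of 10, 188 genes (2.24%) were past 2-fold in A and 134 (1.60%) in B, where the main counts were 593 (7.07%) and 573 (6.83%). The counts were then 1 and 0 of the other early genes, and 0 in either direction of the AP-1 partners and Myc targets and 0 of the ATF and CREB factors. Filtering at a mean of 10 leaves 3733 genes, of which 320 (8.57%) were past 2-fold in A and 238 (6.38%) in B. The counts were then 0 and 0 of the AP-1 partners, 0 of the ATF and CREB factors in A, and 2 of the Myc targets in B. With a pseudocount of 0.1, 2 of 9 AP-1 partners and 2 of 21 kinase cascade genes were past 2-fold in A. In the Myc and Max network 1 of 13 genes was past it in each direction. The shares over all genes at this setting were 10.6% in A and 10.2% in B. Without a filter, 1 of 33 kinase cascade genes and 1 of 14 in the Myc and Max network were past 2-fold in B, beside 5.71% of all genes. List medians reversed for the kinase cascade (-0.13 at a mean of 10), the Myc and Max network (-0.054 without a filter, -0.43 at a mean of 10) and erythrocyte markers (0.22 without a filter); the cause was not tested. The value per kilobase of coding length was not run, since no table of coding lengths was used. Unknown depth limits the low members most, fosl2 and atf3.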
